A study of Mus musculus with 6 samples.

Results

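The genes described here carry glucose from the blood through glycolysis to pyruvate and lactate, or store it as glycogen. They are 33 listed genes of glucose uptake, glycolysis and glycogen handling, and a member was any probe set whose only annotated symbol was 1 of these genes. All 33 had such a probe set, 40 in all, among the 23410 probe sets with a gene symbol that were tested. Whole hearts of mice aged 8 weeks were measured on Affymetrix Gene 1.0 ST arrays, with 3 hearts from Ppif-/- mice and 3 from wildtype (WT) C57BL/6 mice. The Ppif-/- mice carry a global knockout of Ppif, which encodes the mitochondrial cyclophilin D, and were brought from an Sv129 background onto C57BL/6 by backcrossing. No treatment or Cre driver is named for either group, and the array measures RNA from the whole organ. The series states that hearts were taken at this age to find expression changes ahead of myocardial dysfunction.

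Glucose enters a heart muscle cell through facilitative transporters, chiefly the insulin-responsive GLUT4 and the widely expressed GLUT1, and is trapped as glucose 6-phosphate by hexokinase. Phosphofructokinase then commits it to glycolysis, under control of fructose 2,6-bisphosphate, which the bifunctional PFKFB enzymes make and break down. Many steps have several isoforms encoded by separate genes, and in the heart muscle-type isoforms carry much of the flux. Glycogen synthase and the branching enzyme build the glycogen store, and glycogen phosphorylase releases glucose from it.

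Expression is given on the log2 scale, 1 value per probe set and heart, and the number of arrays limits the precision. Array medians lay between 6.03 and 6.11, and the lowest and highest values were 1.91 and 14.63. Ppif read 6.00, 6.25 and 6.44 in the Ppif-/- hearts and 11.44, 11.28 and 11.49 in the WT hearts, which checks the labels. The cardiomyocyte genes Myh6 and Tnnt2 lay between 13.74 and 13.82 in every heart. WT heart 2 stood apart from the other WT hearts for many of the genes described here. It lay farthest from the WT median for 24 of the 33 genes (72.7%), against 45.0% of all probe sets tested. Without it the difference between genotypes moved by over 1.5 times or changed sign for 17 of the 33 genes, of which 12 had a difference of at most 0.1 in size. For the other 5 the value without that heart is given beside the result. The same count was not made for the other hearts, and leaving out those also moved some differences. On leaving out each heart in turn, the difference ranged from -0.20 to -0.05 for Gyg, -0.20 to -0.03 for Pfkfb2 and 0.08 to 0.25 for Pgm2.

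Across the 33 genes, 2 rose and 0 fell in Ppif-/- hearts (limma, Benjamini-Hochberg adjusted p under 0.05 over all probe sets tested), namely the phosphofructokinase isoform Pfkp and the glycogen phosphorylase isoform Pygb. Of all probe sets tested, 1.09% passed this threshold, 0.624% higher and 0.461% lower. At an unadjusted limma p under 0.05, 5 of the 33 were higher and 4 lower, together 27.3%. Of all probe sets 12.9% met this, 6.1% higher and 6.81% lower. The 3 Ppif-/- hearts did not overlap the 3 WT hearts for 6 genes on the higher side and 6 on the lower side, 36.4% in all. Of all probe sets 19.8% did not overlap, 9.21% higher and 10.6% lower. The margin was slight for Aldoc, 1 of the 6 lower genes, whose highest Ppif-/- and lowest WT heart both read 5.40 to 2 decimals. The median difference (Ppif-/- minus WT) was -0.02 over the 33 genes and -0.002 over all probe sets, and 25 of the 33 (75.8%) differed by less than 0.2, as did 83.6% of all probe sets. The 7 further probe sets of genes with several gave no other call. Since these genes were listed with earlier results of the data known, the counts describe them and test nothing about the list.

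**Figure D1:**
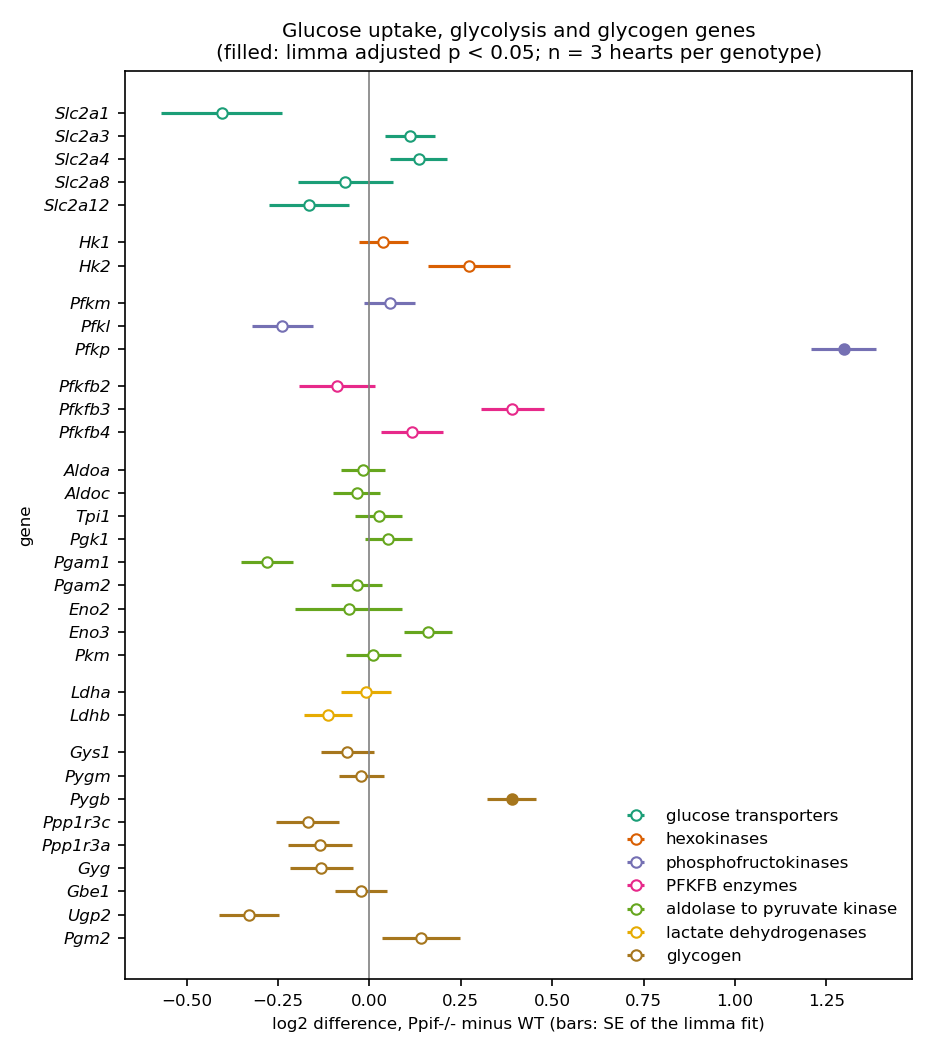
Difference in log2 expression between Ppif-/- and WT hearts (x axis, log2 units) for the 33 genes (y axis), 1 probe set per gene, grouped by role. Points are limma estimates from 3 hearts per genotype and bars are the standard error. Filled points are Pfkp at 1.30 and Pygb at 0.39, the 2 genes past an adjusted p of 0.05, while 25 of the 33 lie within 0.2 of 0.

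Phosphofructokinase catalyses the committed step of glycolysis, and mouse has a muscle (Pfkm), a liver (Pfkl) and a platelet (Pfkp) isoform. Pfkp read 10.74, 10.87 and 10.64 in the Ppif-/- hearts and 9.45, 9.34 and 9.57 in the WT hearts. The genotypes were separated by more than 1 log2 unit, with every Ppif-/- heart above every WT heart. Pfkp rose by 1.30 ± 0.09 (log2 difference ± SE of the limma fit, n = 3 per group), 2.46-fold (adjusted p = 0.000615).

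Pfkm, the isoform that predominates in striated muscle, read 13.00, 12.99 and 12.93 in Ppif-/- and 12.96, 12.83 and 12.96 in WT hearts. The groups overlapped, with a difference of 0.06 ± 0.07 (limma adjusted p = 0.807). Pfkl read 10.07, 10.01 and 10.04 in Ppif-/- and 10.33, 10.12 and 10.39 in WT hearts. Each Ppif-/- heart was below each WT heart, but the difference of -0.24 ± 0.08 did not pass (limma adjusted p = 0.289). The level of 1 probe set cannot be set against that of another on this array, so these values do not give the share of each isoform.

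Whether isoforms changed unequally was asked within each heart, as the log2 difference between the probe sets of a pair of isoforms. This difference was compared between genotypes by an exact 2-sided permutation test for 22 pairs from 9 families. With 3 hearts against 3, that test cannot give a p below 0.1, and 0.2 was the smallest after adjustment over the 22 pairs, so no pair could pass. Pfkp minus Pfkm was 1.24 ± 0.06 higher in Ppif-/- than in WT hearts and Pfkp minus Pfkl 1.54 ± 0.08 higher, and the hearts did not overlap for either pair (exact permutation p = 0.1 for each). Pfkl minus Pfkm differed by -0.29 ± 0.05, again without overlap (exact permutation p = 0.1). Among all 22 pairs, the hearts did not overlap for 11. Single probe sets did not overlap in 19.8%, which is no base for pairs, and no share over other pairs of probe sets was computed. Pairs of a family share genes, and Slc2a1 was in 3 of the 11.

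**Figure D2:**
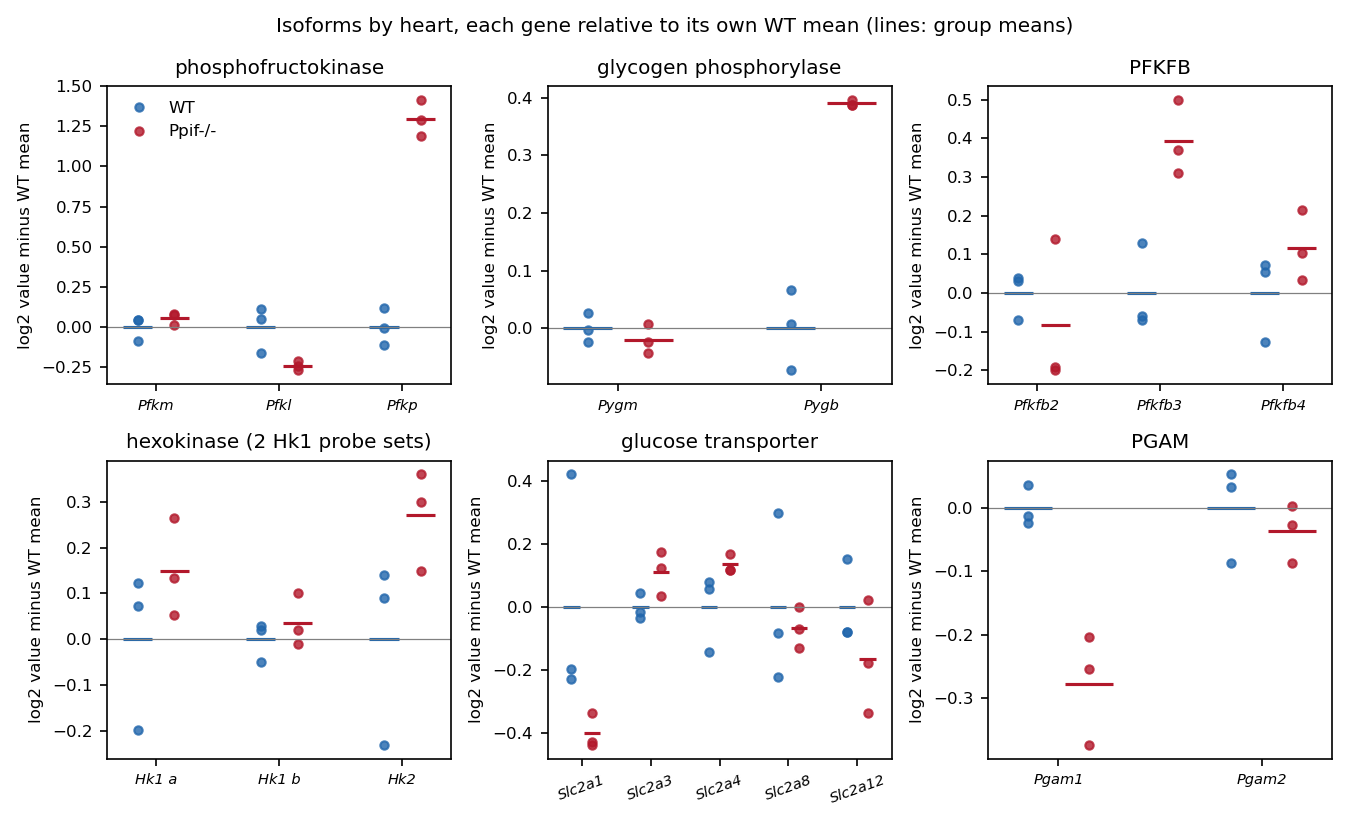
Values of each heart (points) for isoforms of 6 enzyme families, as log2 value minus the WT mean of the same probe set (y axis), with WT hearts in blue, Ppif-/- hearts in red and group means as lines. Each panel has its own scale, Hk1 a is the Hk1 probe set tied to a RefSeq mRNA and Hk1 b the other. Pfkp and Pygb stand above their WT hearts while Pfkm and Pygm overlap with theirs, and 1 WT heart, heart 2, is high for Slc2a1 (9.53) and low for Hk2 (11.49).

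**Figure D3:**
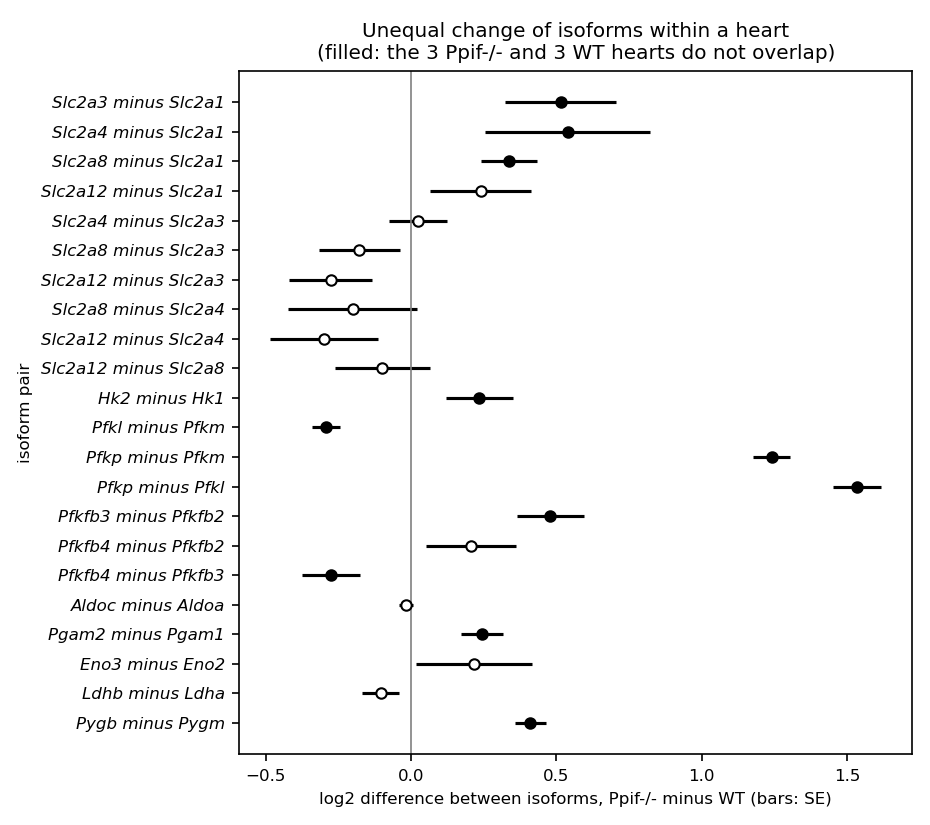
Difference between the 2 isoforms of a pair within a heart, Ppif-/- minus WT (x axis, log2 units, mean of 3 hearts per genotype with its standard error), for 22 pairs (y axis). Filled points mark the 11 pairs whose Ppif-/- and WT hearts do not overlap. The 2 pairs farthest from 0 are Pfkp minus Pfkl (1.54) and Pfkp minus Pfkm (1.24).

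Pfkp was called under each of the 16 alternative settings run, with differences of 1.24 to 1.35 and a limma adjusted p of 5.4e-05 to 0.00924. Many of the 20 measured genes nearest to Pfkp along chromosome 13, 10 on each side, read below the table median of 6.05. RMA compresses differences there, so these genes could show little. Of all probe sets tested, limma called 1.09%, and 12.9% had an unadjusted p under 0.05. Of the 20 genes limma called 0, with 2 at an unadjusted p under 0.05. These were Klf6, a Kruppel-like transcription factor, at 0.50 ± 0.10 (limma adjusted p = 0.0759), and Zmynd11, a chromatin reader, at -0.21 ± 0.07 (limma adjusted p = 0.24). Both were chosen after their values were seen, and whether Sv129 sequence linked to Pfkp takes part was not tested. Since Pfkp is named for platelets, markers of that cell type were read beside it. Of 9 listed platelet markers 6 were measured, and 0 passed in limma with 2 at an unadjusted p under 0.05, 1 in each direction. The Ppif-/- and WT hearts did not overlap for 3 of the 6, all higher in Ppif-/-, against 9.21% of all probe sets on that side. The mean log2 value of the 6 markers was 5.81 to 5.97 in Ppif-/- hearts and 5.80 to 5.98 in WT hearts. The part of blood cells in the Pfkp difference was not tested.

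Glycogen phosphorylase cleaves glucose 1-phosphate from glycogen, with a muscle isoform (Pygm) and a brain isoform (Pygb) that the heart also expresses. Pygb read 12.68, 12.68 and 12.69 in Ppif-/- and 12.22, 12.36 and 12.30 in WT hearts. The Ppif-/- hearts lay within 0.02 of each other and all above the WT hearts. Pygb rose by 0.39 ± 0.07, 1.31-fold (limma adjusted p = 0.046).

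The call was close to the threshold. It was lost on leaving out any 1 of the 6 hearts (limma adjusted p = 0.0654 to 0.162), while the difference stayed between 0.35 and 0.42. It was also lost on testing unnamed probe sets too (0.124), with the replicate number as a block (0.125) and with arrays centred on their medians (0.0626), and it held in 7 of the 16 settings. Pygm read 13.17, 13.22 and 13.19 in Ppif-/- and 13.21, 13.19 and 13.24 in WT hearts, a difference of -0.02 ± 0.06 with overlapping groups (limma adjusted p = 0.928). Within a heart, Pygb minus Pygm differed by 0.41 ± 0.05 without overlap between genotypes (exact permutation p = 0.1). Of the 20 measured genes nearest to Pygb along chromosome 2, limma called 0, with 1 at an unadjusted p under 0.05. Over all probe sets these shares were 1.09% and 12.9%. Many of the 20 read below the table median of 6.05, where RMA compresses differences.

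The promoters of Pfkp and Pygb are shown beside those of Pfkl and Pygm, an isoform of each enzyme that did not pass and that has 1 annotated start. Each is the 250 bases before the RefSeq start in GRCm38.p6, 5′ to 3′ on the gene's strand, with ACGTG and GGGCGG in capitals on either strand (CACGT and CCGCCC where the match is on the opposite strand). ACGTG is 1 form of the core to which hypoxia-inducible factors bind, and GGGCGG is the GC box of Sp1. The other form of that core, GCGTG, was not searched or marked, so the counts below cover ACGTG alone.
Pfkp, chr13:6648772-6649021, minus strand: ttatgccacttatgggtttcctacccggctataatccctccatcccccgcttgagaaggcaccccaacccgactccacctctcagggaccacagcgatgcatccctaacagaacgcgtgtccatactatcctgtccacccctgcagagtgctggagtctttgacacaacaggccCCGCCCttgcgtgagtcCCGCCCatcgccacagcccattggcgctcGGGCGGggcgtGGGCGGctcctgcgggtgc
Pfkl, chr10:78009808-78010057, minus strand: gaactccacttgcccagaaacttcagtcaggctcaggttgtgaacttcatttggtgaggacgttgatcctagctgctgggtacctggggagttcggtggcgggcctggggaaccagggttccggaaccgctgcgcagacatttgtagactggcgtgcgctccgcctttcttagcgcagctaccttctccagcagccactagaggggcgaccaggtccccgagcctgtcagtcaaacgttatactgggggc
Pygb, chr2:150786546-150786795, plus strand: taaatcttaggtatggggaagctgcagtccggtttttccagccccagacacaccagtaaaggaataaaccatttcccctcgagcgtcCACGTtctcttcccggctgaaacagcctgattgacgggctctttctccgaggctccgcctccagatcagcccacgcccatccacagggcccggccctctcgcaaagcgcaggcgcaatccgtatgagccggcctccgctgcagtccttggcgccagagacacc
Pygm, chr19:6384158-6384407, plus strand: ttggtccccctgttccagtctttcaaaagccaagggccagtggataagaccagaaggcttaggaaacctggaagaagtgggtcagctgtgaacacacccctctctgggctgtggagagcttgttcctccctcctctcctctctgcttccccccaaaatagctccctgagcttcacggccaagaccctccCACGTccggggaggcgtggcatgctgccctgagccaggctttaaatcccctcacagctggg
The Pfkp window held 4 GC boxes and 0 ACGTG cores, and the Pfkl window held 0 of either. The Pygb and Pygm windows each held 1 ACGTG core and 0 GC boxes. RefSeq windows were found for 31 of the 33 genes, 44 windows in all, and 19 of them (43.2%) held ACGTG, against 16.6% of all 32851 windows. Windows of 1 gene can overlap, GC content was not matched, and a match is only a run of letters. The E-box CACGTG, which contains ACGTG, was in 5 of the 44 windows and in 6.02% of all windows. The GC box was in 32.7% of all windows, and its share of the 44 is not given here, so the motifs cannot be ranked.

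The PFKFB enzymes set the level of fructose 2,6-bisphosphate, the strongest activator of phosphofructokinase. Pfkfb3, the isoform with the highest kinase activity relative to its phosphatase, read 7.38, 7.19 and 7.25 in Ppif-/- and 6.81, 7.01 and 6.82 in WT hearts. All Ppif-/- hearts lay above all WT hearts, yet the difference of 0.39 ± 0.09 (1.31-fold) did not pass (limma adjusted p = 0.0958), except with array weights (0.0486). Pfkfb2, the isoform best known from heart, read 10.81, 10.47 and 10.48 in Ppif-/- and 10.71, 10.60 and 10.70 in WT hearts. The groups overlapped, and 1 Ppif-/- heart was high while the other 2 were low (-0.09 ± 0.10, limma adjusted p = 0.787). Pfkfb4 overlapped as well, at 6.25 to 6.43 in Ppif-/- and 6.09 to 6.29 in WT hearts. Pfkfb3 minus Pfkfb2 differed by 0.48 ± 0.12 (exact permutation p = 0.1, no overlap).

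Hexokinase traps glucose in the cell, Hk2 being the insulin-regulated isoform of muscle and Hk1 the more widely expressed isoform, and both can bind the outer mitochondrial membrane. Hk2 read 12.08, 11.87 and 12.02 in Ppif-/- and 11.86, 11.49 and 11.81 in WT hearts. The groups did not overlap, but the lowest Ppif-/- heart and the highest WT heart differed by little, and WT heart 2 was lowest. The difference was 0.27 ± 0.11 (limma adjusted p = 0.358), and 0.16 without WT heart 2 (limma adjusted p = 0.558).

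Hk1 was read by 2 probe sets, and neither passed. The probe set tied to a RefSeq mRNA read 9.93, 10.14 and 10.01 in Ppif-/- hearts. In WT hearts 2 read 9.68 and 9.95 and the highest lay within the Ppif-/- range, so the groups overlapped (0.15 ± 0.10, limma adjusted p = 0.599, and 0.05 without WT heart 2). The other lay between 12.32 and 12.47 in all 6 hearts (0.04 ± 0.07). It was tied to Hk1 in the platform annotation by a single cDNA record, which also tied 16 probe sets of the ribosomal protein gene Rpl17 to Hk1, so what it reads is uncertain. Hk2 minus that probe set differed by 0.23 ± 0.12 without overlap (exact permutation p = 0.1), or 0.14 without WT heart 2, and Hk2 minus the RefSeq one by 0.12 ± 0.13 with overlap (exact permutation p = 0.4).

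In limma 0 of the 5 glucose transporters passed, with 1 below 0.05 before adjustment. Slc2a4, which encodes GLUT4, read 11.47, 11.47 and 11.52 in Ppif-/- and 11.41, 11.21 and 11.43 in WT hearts. The Ppif-/- hearts were above the WT hearts by a narrow margin (0.14 ± 0.08, limma adjusted p = 0.521), and the difference was 0.07 without WT heart 2. Slc2a1, which encodes GLUT1, read 8.77, 8.68 and 8.67 in Ppif-/- and 8.91, 9.53 and 8.88 in WT hearts. WT heart 2 was high, the other WT hearts were close above the Ppif-/- hearts, and the difference was -0.40 ± 0.17 (limma adjusted p = 0.359), or -0.19 without that heart (0.389).

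The remaining transporters overlapped between genotypes. Slc2a3 (GLUT3, the high-affinity transporter of neurons) lay at 6.05 to 6.19 in Ppif-/- and 5.98 to 6.06 in WT hearts, close to the array medians. Slc2a8 (GLUT8, an intracellular transporter) lay at 7.54 to 7.67 in Ppif-/- and 7.45 to 7.97 in WT hearts. Slc2a12 (GLUT12) lay at 8.13 to 8.49 in Ppif-/- and 8.39 to 8.62 in WT hearts, a difference of -0.16 ± 0.11, or -0.09 without WT heart 2. Slc2a4 minus Slc2a1 differed by 0.54 ± 0.28 (exact permutation p = 0.1, no overlap), and 0.26 without WT heart 2.

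From aldolase to pyruvate kinase, 0 of 9 genes passed in limma, and Pgam1 and Eno3 were the 2 with an unadjusted p under 0.05. Pgam1, the widely expressed phosphoglycerate mutase, read 9.39, 9.34 and 9.22 in Ppif-/- and 9.58, 9.63 and 9.57 in WT hearts on its brightest probe set. All Ppif-/- hearts lay below all WT hearts, with a difference of -0.28 ± 0.07 (limma adjusted p = 0.145). The other Pgam1 probe sets, a pair with the same values in every heart and so counted once, gave -0.31 ± 0.08 (limma adjusted p = 0.142).

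Eno3, the muscle enolase, read 13.06, 13.11 and 13.04 in Ppif-/- and 12.95, 12.86 and 12.92 in WT hearts. The groups did not overlap, but the difference of 0.16 ± 0.06 did not pass (limma adjusted p = 0.353). Pgam2, the muscle mutase, overlapped between genotypes (-0.04 ± 0.07, limma adjusted p = 0.891), and Pgam2 minus Pgam1 differed by 0.24 ± 0.07 (exact permutation p = 0.1, no overlap).

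The other genes of these steps showed differences of at most 0.06 in size. They were the aldolases Aldoa (-0.02 ± 0.06) and Aldoc (-0.04 ± 0.06), triosephosphate isomerase Tpi1 (0.03 ± 0.06), phosphoglycerate kinase Pgk1 (0.05 ± 0.06), the neuronal enolase Eno2 (-0.06 ± 0.15) and pyruvate kinase Pkm (0.01 ± 0.07). Pgk1 was read by 3 probe sets, 2 of them with the same values in every heart. Aldoc and Eno2 were the 2 genes below the median of the table, where RMA compresses differences. The lactate dehydrogenase subunits Ldha (-0.01 ± 0.07) and Ldhb (-0.11 ± 0.07) did not pass. Ldhb is the subunit typical of heart. On its brighter probe set it lay at 11.97 to 12.09 in Ppif-/- and 12.12 to 12.14 in WT hearts, without overlap. On the other (-0.08 ± 0.07), the highest Ppif-/- heart and the lowest WT heart both read 11.92 to 2 decimals. Probe sets that read processed copies of Pgk1, Pgam1, Pkm or Ldhb cannot be told from those of the parent gene here.

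Among 9 glycogen genes, Pygb was the 1 that passed, and Ugp2 was the other with an unadjusted limma p under 0.05. Ugp2, which makes the UDP-glucose that glycogen synthase uses, read 10.26, 10.21 and 10.03 in Ppif-/- and 10.49, 10.45 and 10.56 in WT hearts. Every Ppif-/- heart was below every WT heart, with a difference of -0.33 ± 0.08 that did not pass (limma adjusted p = 0.138, and 0.0504 to 0.304 over the 16 alternatives). The muscle glycogen synthase Gys1 overlapped at 10.61 to 10.73 in Ppif-/- and 10.66 to 10.80 in WT hearts.

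The primer protein glycogenin (Gyg, -0.13 ± 0.09) and the branching enzyme Gbe1 (-0.02 ± 0.07) overlapped between genotypes. The glycogen-targeting subunits of protein phosphatase 1, Ppp1r3c (-0.17 ± 0.09) and Ppp1r3a (-0.14 ± 0.09, or -0.06 without WT heart 2), overlapped too, as did the phosphoglucomutase Pgm2 (0.14 ± 0.11). Symbols of mouse Pgm1 and Pgm2 have been exchanged in the past, and both were matched by gene identifier. Pgm1, outside the 33 and picked once its value was known, differed by -0.02 ± 0.07.

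Genes around these pathways were read from 6 further lists. In the order given below, 14.3%, 7.69%, 19.0%, 23.5%, 17.9% and 16.7% of their genes had an unadjusted limma p under 0.05. Of all probe sets 12.9% did, and limma called 1.09% of all. Of 14 measured glycolytic and gluconeogenic enzymes outside the 33, limma called 0, with 2 at an unadjusted p under 0.05, Tigar, a fructose bisphosphatase that lowers fructose 2,6-bisphosphate (-0.28 ± 0.09), and the gluconeogenic Pck1 (0.30 ± 0.11). Gapdh, Gpi1 and Eno1 had no probe set with a single symbol and were not analysed here. Of 13 other sugar, lactate and pyruvate transporters, limma called 0, with 1 at an unadjusted p under 0.05, with Slc2a10 at 0.22 ± 0.08 and Slc2a2 at -0.17 ± 0.09, both at low levels of 5.40 to 5.95. Of 21 other glycogen genes, limma called 0, with 4 at an unadjusted p under 0.05, with the targeting subunit Ppp1r3d at -0.41 ± 0.11 (adjusted p = 0.152) and the liver synthase Gys2, at a low level, at -0.27 ± 0.09.

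Among 17 genes that branch from glycolysis, 4 had an unadjusted p under 0.05 and 1 passed, higher (5.88%, against 1.09% of all probe sets). It was Pgls, which hydrolyses 6-phosphogluconolactone in the pentose phosphate pathway. Pgls read 7.84, 7.83 and 7.91 in Ppif-/- and 7.48, 7.52 and 7.47 in WT hearts. The groups were well apart, and Pgls rose by 0.37 ± 0.06, 1.29-fold (limma adjusted p = 0.046), a call lost without any 1 heart (0.0878 to 0.16).

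Of 28 regulators of glucose use, limma called 0, with 5 at an unadjusted p under 0.05. Tbc1d4, a Rab GTPase-activating protein that restrains GLUT4 traffic, stood at -0.26 ± 0.07 (limma adjusted p = 0.146) and the insulin receptor substrate Irs2 at 0.36 ± 0.11 (limma adjusted p = 0.223). Of 12 hypoxia-responsive genes, limma called 0, with 2 at an unadjusted p under 0.05, the pyruvate dehydrogenase kinase Pdk1 at -0.29 ± 0.08 and Ndrg1 at -0.25 ± 0.08. The list medians lay between -0.06 and 0.03, against -0.002 for all probe sets.

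**Figure D4:**
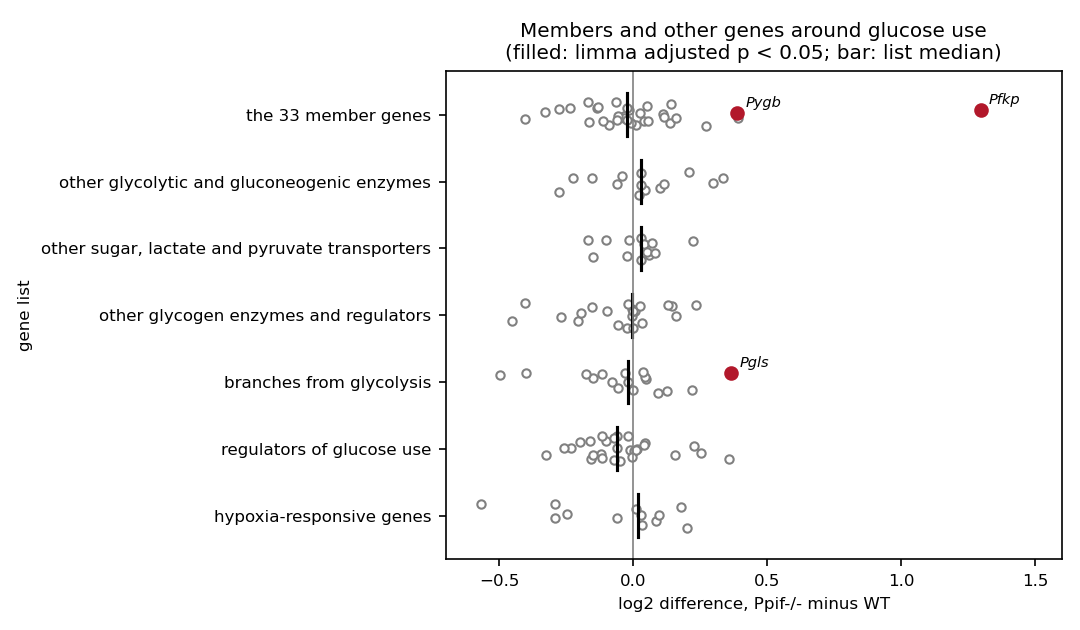
Difference in log2 expression, Ppif-/- minus WT (x axis, log2 units), for the 33 genes and 6 further lists (y axis), 1 point per gene with a small vertical spread for sight only. Red points passed an adjusted p of 0.05 in limma, and black bars are list medians. Outside Pfkp, Pygb and Pgls no point is red, and the medians lie between -0.06 and 0.03.

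Markers of the heart's cell types were read beside these results, and in whole hearts fewer cells of a type and less RNA per cell cannot be told apart. Of 81 markers measured over 12 lists, 3 passed in limma (3.7%, against 1.09% of all probe sets). They and the other markers named here were picked once their values were known. They were the fibroblast receptor gene Pdgfra (-0.44 ± 0.06, adjusted p = 0.0246), the smooth muscle gene Tagln (-0.51 ± 0.08, adjusted p = 0.0332) and the macrophage gene Cd68 (0.56 ± 0.09, adjusted p = 0.0394). Other genes of the same lists differed in the opposite direction without passing, with the collagen gene Col3a1 at 0.38 ± 0.21 and the monocyte gene Cd14 at -0.66 ± 0.22. WT heart 2 was the lowest WT heart for Col3a1 (8.98, against 9.78 and 9.85) and the highest for Cd14 (6.58, against 6.02 and 5.60). The pericyte gene Rgs5 stood at 0.27 ± 0.07, the only 1 of the 7 smooth muscle and pericyte markers above 0. The 7 fibroblast markers together overlapped, with a mean log2 value of 9.64 to 9.81 in Ppif-/- and 9.53 to 9.79 in WT hearts. The mean log2 value of the 9 cardiomyocyte markers was 12.45 to 12.49 in Ppif-/- and 12.36 to 12.38 in WT hearts. Without Nppa, the natriuretic peptide gene at 0.68 ± 0.13 (limma adjusted p = 0.0681), the other 8 overlapped at 12.50 to 12.53 and 12.47 to 12.53. The mean of the 7 smooth muscle and pericyte markers was 9.22 to 9.30 in Ppif-/- and 9.40 to 9.55 in WT hearts, and 8 macrophage markers overlapped at 7.68 to 7.86 and 7.61 to 7.75. The mean of 6 T and B cell markers, at low levels, was 4.94 to 5.03 in Ppif-/- and 5.06 to 5.23 in WT hearts. Limma called 0 of these 6, with 3 at an unadjusted p under 0.05, all lower. Of the 81 markers 18 had such a p, as did 12.9% of all probe sets. No value on this array is 0, so the level without a cell type is not known, and the part of cell types in the differences of Pfkp, Pygb and Pgls was not tested.

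The calls of Pfkp and Pygb were set side by side with those genes that came nearest to the threshold. Under each setting Pfkfb3, Ugp2 and Pgam1 had a higher adjusted p than Pygb, and Pygb a higher one than Pfkp. The only call among those 3 genes was that of Pfkfb3 with array weights.

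**Figure D5:**
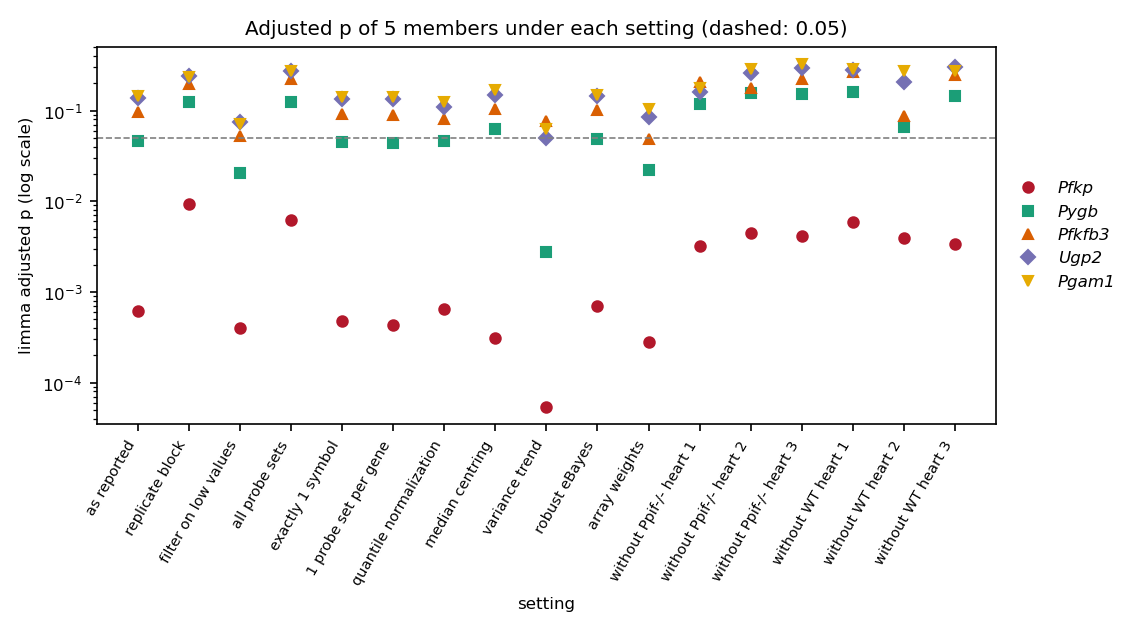
Limma adjusted p (y axis, log scale) of Pfkp, Pygb, Pfkfb3, Ugp2 and Pgam1 as reported and under each of the 16 alternative settings (x axis), with the 0.05 threshold dashed. Pfkp lies below the line throughout (at most 0.00924), while Pygb crosses it and lies above whenever a heart is left out (0.0654 to 0.162).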

How the data were processed

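RNA from 6 mouse hearts, 3 Ppif-/- and 3 WT as titled in the labels, was read on 1 array each. The authors deposited log2 values per probe set, made with RMA (background correction, normalisation between arrays and probe summary) per the submitters' processing notes. RMA compresses low signals, and its software and version and the genome build were not stated in what was read here. The table of 35557 probe sets was used unchanged. Symbols came from the platform's annotation, brought up to date by Entrez identifier against the gene table of GRCm38.p6. Of the probe sets, 21789 had 1 symbol, 1621 several and 12147 none. Members were probe sets with 1 symbol, and a gene with several was represented by the one with the highest mean over all arrays. No filter on low values was used, and 31 of the 33 genes lay at or above the median of the table.

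The genotype difference was fitted by limma (version 3.58.1, R 4.3.3; lmFit, then eBayes) without covariates over the 23410 probe sets with a symbol. Tests were 2-sided, p-values were adjusted by Benjamini-Hochberg, and an adjusted p under 0.05 counted as a call. Isoform pairs used exact permutation tests over hearts (scipy 1.17.1), with a standard error from the pooled spread, and RMA may compress dim and bright isoforms unequally. The fit was also run on simulated arrays of independent normal values. These hold no deviation shared by the probe sets of a heart, so they do not show that the calls hold here. Same-numbered hearts are not said to be pairs, and no batch is given. The limma p-values set a difference against the spread between these hearts, which eBayes moderates toward that of all probe sets tested.

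The genes, lists and tests were chosen with earlier results of these data known. Named by rule were the 33 genes, Ppif, Gapdh, Gpi1 and Eno1, and in each further list the genes past the threshold or else the 2 with the smallest p. The text marks the others. Alternatives were the replicate number as a block, other sets of probe sets, other normalisations, a variance trend, robust eBayes, array weights, and leaving out each heart.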

Additional observations from a re-analysis of the deposited data

How the results depend on the processing

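Of the 33 genes, the count called higher was 2 as reported and 1, Pfkp alone, with the replicate number as a block, with all probe sets of the table, with arrays centred on their medians, and on leaving out hearts (1 to 1). With array weights Pfkfb3 passed too. The replicate block left Pygb at an adjusted p of 0.125 and moved the count over all probe sets from 254 to 160. Same-numbered hearts deviated together by correlations of -0.08 to 0.12, so the numbers are not treated as pairs. With the filter on low values 403 of 13553 probe sets were called, and with all probe sets 131 of 35557. Of the 23410 tested as reported, 453 were called with a variance trend, 386 with array weights, and 131 to 171 without 1 heart. In the list of branches from glycolysis, the count called higher was 1 and became 0 with the block, with all probe sets, with median centring and without any heart (0 to 0).

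Some differences near 0 changed sign, none of them past the threshold in any setting. The Pkm difference was -0.0080 with median centring and with array weights, and -0.0444 to 0.0429 without 1 heart. The Pkm difference, probe set 10528480, was -0.0042 with quantile normalisation, -0.0186 with median centring, -0.0184 with array weights and -0.0412 to 0.0348 without 1 heart. The Slc2a8 difference was 0.0043 with array weights and -0.177 to 0.0858 without 1 heart, and the Eno2 difference 0.0390 and -0.138 to 0.103. Without 1 heart the Tpi1 difference was -0.0038 to 0.0497, the Ldha difference -0.0485 to 0.0162 and the Gbe1 difference -0.0569 to 0.0157. The cause was not tested. The pairs of phosphofructokinase and of glycogen phosphorylase kept their direction with quantile normalisation and without 1 heart, the settings that could move them. Taking Hk1 from the RefSeq probe set, chosen after the data were seen, gave 0.12 in place of 0.23 for Hk2 minus Hk1. The background correction and slide could not be varied from these values.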
